A study of Homo sapiens with 8 samples.

Results

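The 10 genes described here encode the chondroitin sulfate proteoglycans and tenascins of the brain matrix: the lecticans BCAN (brevican), NCAN (neurocan), VCAN (versican) and ACAN (aggrecan), the link protein HAPLN1, the tenascins TNC and TNR, and the proteoglycans of glial membranes CSPG4 (NG2), CSPG5 (neuroglycan C) and PTPRZ1 (receptor-type protein tyrosine phosphatase zeta). They were taken by name, for what they encode, out of 58217 genes with at least 1 matched transcript. Earlier results of these data were known when they were chosen. All 10 passed the filter on low counts that left 18201 genes for testing. The cells were oligodendrocyte progenitor cells (OPCs) differentiated from the established human line H9 of embryonic stem cells, and none of the groups carried forced SOX10 expression. They were kept for 2 days in OPC medium on Matrigel, a basement membrane extract of mouse sarcoma that itself holds laminin, collagen and proteoglycans (2 libraries, replicates 2 and 3), on VN, the cell-adhesion protein vitronectin (3 libraries), or on VNP2, a designed variant of the integrin-binding peptide of vitronectin that the study made as a fusion with mussel adhesive protein (3 libraries). The sequencing asked how gene expression in OPCs differs between the substrates before any SOX10 is supplied.

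Lecticans carry chondroitin sulfate chains on a core protein that binds hyaluronan at one end and tenascins at the other, and link proteins such as HAPLN1 lock the lectican onto hyaluronan. Versican and neurocan dominate the loose matrix of the developing brain, whereas brevican, aggrecan and TNR belong more to the mature matrix around neurons and nodes. TNC is made by radial glia and by immature astrocytes and OPCs, and PTPRZ1, which binds TNC, pleiotrophin and contactin, is made by radial glia and OPCs. NG2 is the surface antigen by which OPCs are usually recognised.

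Polyadenylated RNA was sequenced as stranded libraries with a depth of 37997896 to 39429453 estimated counts, and no label says whether the replicates of a substrate came from separate differentiations, so the p-values measure the spread between these libraries, which may be technical. The VN replicate 1 library stood apart from the other two: the median chi-square per gene was 2.35 and 2.74 between it and the other VN libraries, 0.787 between those, and 0.713 to 1.18 within Matrigel and VNP2, where counting noise alone gives 0.455. The values of the members called on VN are therefore also given without that library, and the other genes named below are given without it where their call was lost. Of the defining OPC markers, PDGFRA, OLIG1, OLIG2 and NKX2-2 were all measured in numbers that allowed a test, whereas SOX10 had 20 counts over all 8 libraries and was at 0 in both from Matrigel. CSPG4 was also low, as given below, so in this RNA the label rests on the other markers. By immunostaining at the end of OPC induction, before expansion by passaging, the paper reports OLIG2 in most H9-derived cells and NG2 protein on a minority. For the stained markers it reports no significant change after passaging, apart from OLIG2.

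The upstream sequences of 3 members whose level differed between substrates are shown first, because one fell and the other two rose. Promoter sequences from RefSeq (GRCh38.p14) were found for 8 of the members, and only the part upstream of every annotated GENCODE transcript start is printed, 5′ to 3′ on the strand of the gene. Capitals mark matches on either strand to the SOX core letters ACAAT and to the E-box letters CANNTG, the kind of site bound by OLIG and other helix-loop-helix factors.
TNC, chr9:115118258-115118407, minus strand: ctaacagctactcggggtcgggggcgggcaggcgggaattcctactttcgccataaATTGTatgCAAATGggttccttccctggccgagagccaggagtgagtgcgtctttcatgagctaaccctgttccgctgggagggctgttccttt
PTPRZ1, chr7:121872911-121873088, plus strand: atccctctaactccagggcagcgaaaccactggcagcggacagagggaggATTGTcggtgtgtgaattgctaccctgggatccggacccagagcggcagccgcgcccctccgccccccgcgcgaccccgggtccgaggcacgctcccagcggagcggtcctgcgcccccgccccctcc
CSPG4, chr15:75712849-75713098, minus strand: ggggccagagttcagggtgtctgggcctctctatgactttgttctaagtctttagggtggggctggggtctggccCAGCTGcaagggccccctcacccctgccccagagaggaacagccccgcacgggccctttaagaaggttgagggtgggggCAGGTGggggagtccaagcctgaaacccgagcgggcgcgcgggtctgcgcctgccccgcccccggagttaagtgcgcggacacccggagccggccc
The TNC window of 150 bases held 1 SOX match and 1 E-box match, the PTPRZ1 window of 178 bases held 1 SOX match, and the CSPG4 window of 250 bases held 2 E-box matches. Among 35116 promoters cut to the same lengths, 16.6% held a SOX match and 45.2% an E-box match at the TNC length, 19.0% a SOX match at the PTPRZ1 length, and 61.8% an E-box match at the CSPG4 length. The PTPRZ1 window held 0 E-box matches and the CSPG4 window 0 SOX matches, where 50.8% and 24.6% of promoters of those lengths held one. The AP-1 letters TGANTCA and the TEAD letters GGAATG had 0 matches in all 3 windows. Such matches are rare at these lengths, held by 3.78% to 6.57% of promoters for AP-1 and 7.47% to 11.9% for TEAD.

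The members covered a wide range of levels. Levels between genes were compared as TPM, the transcript abundance scaled to the length of each transcript and to the library. VCAN was highest, at 266 to 322 TPM over the 8 libraries, followed by TNC at 133 to 251 and PTPRZ1 at 106 to 189. Together these 3 genes of the immature brain matrix stood well above the rest: CSPG5 had 7.32 to 11.2 TPM, NCAN 3.58 to 6.26 and BCAN 1.57 to 2.33. CSPG4 had 0.571 to 1.14 TPM and ACAN 0.252 to 0.827, and these 2 ranges overlapped. HAPLN1 had 0.114 to 0.432 TPM, overlapping with ACAN, and TNR had 0.0129 to 0.209, with 1 VNP2 library inside the range of HAPLN1. The lectican of the cartilage and mature neuron matrix and the 2 partners TNR and HAPLN1 were thus near the bottom of what these libraries could measure, with 41 to 75, 4 to 15 and 9 to 17 estimated counts per library, respectively.

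**Figure D1:**
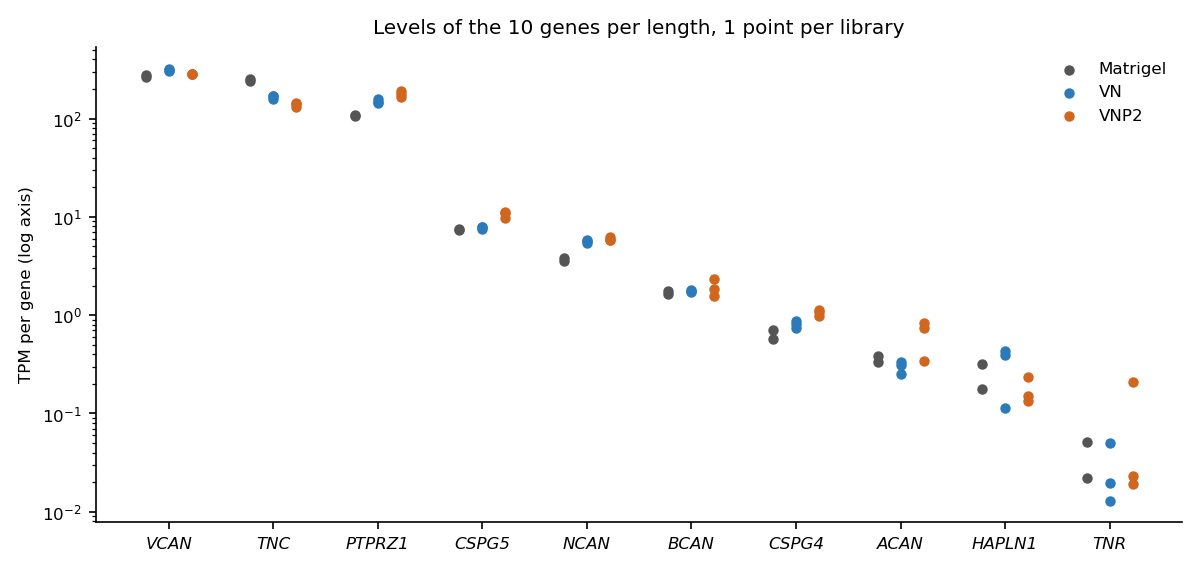
TPM per gene (log axis) of the 10 genes, ordered by their mean, with 1 point per library and colour for the substrate. VCAN, TNC and PTPRZ1 lie above 100 TPM in every library, CSPG5 and NCAN between 3.58 and 11.2, and the other 5 below 2.4.

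The order of the 3 abundant genes depended on the substrate. On Matrigel TNC averaged 246 ± 5.89 TPM (SD, n = 2) and PTPRZ1 108 ± 2.75. On VN the values were 166 ± 6.05 for TNC and 151 ± 8.17 for PTPRZ1 (SD, n = 3), and on VNP2 they were 138 ± 5.45 and 178 ± 10.6 (SD, n = 3). The TPM ratio of TNC to its receptor PTPRZ1 was 2.28 in both Matrigel libraries, 1.18, 0.997 and 1.15 on VN, with 0.804, 0.791 and 0.738 on VNP2. The 3 substrates did not overlap in this ratio. VCAN averaged 271 ± 7.29 TPM on Matrigel, 312 ± 9.61 on VN and 284 ± 0.939 on VNP2. Its TPM includes a short transcript with a retained intron, and over protein-coding transcripts alone VCAN averaged 172, 208 and 186 TPM and TNC 235, 159 and 132, so that TNC stood above VCAN on Matrigel. PTPRZ1 is understated on every substrate, since 78.7% of its counts in the table of the authors could be matched to the annotation used here, against 100% for the other 9. Scaled up by that share, PTPRZ1 averaged 137 ± 3.49 TPM on Matrigel (SD, n = 2), 191 ± 10.4 on VN and 226 ± 13.5 on VNP2 (SD, n = 3), so that on VN it lay above TNC instead of below it. The scaling takes the counts left out to have the average length of the matched PTPRZ1 transcripts, which was not tested. The scaled ratio of TNC to PTPRZ1 was 1.796 and 1.792 on Matrigel, 0.926, 0.785 and 0.905 on VN, with 0.633, 0.623 and 0.581 on VNP2. The same factor was applied to every library, so the lack of overlap is carried over from the unscaled ratio and adds no evidence. The matched part was smallest on Matrigel, with means of 13145 of 17380 normalized counts. On VN it was 17327 of 21836 and on VNP2 20682 of 25985, so a single factor raises Matrigel too little. The order on Matrigel and VNP2 was thus the same either way, and that on VN turned with the scaling. Over protein-coding transcripts alone and without scaling, PTPRZ1 averaged 81.2, 113 and 139 TPM, below TNC on Matrigel and VN and above it on VNP2.

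Differences between substrates were read from 1 edgeR model of all 8 libraries, on counts divided by library size and transcript length (normalized counts). On VN against Matrigel, 4 of the 10 members passed the test: NCAN, VCAN and PTPRZ1 were higher and TNC was lower, where 15.2% of all tested genes passed, 5.81% higher and 9.41% lower. The VN and Matrigel libraries did not overlap for 6 members, against 44.4% of all genes. These included CSPG4, which overlapped in the table of the authors. On VNP2 against Matrigel, 5 members passed, with NCAN, CSPG4, CSPG5 and PTPRZ1 higher and TNC lower, where 16.6% of all genes passed, 7.45% higher and 9.13% lower. The libraries did not overlap for the same 5, against 48.1% of all genes. On VNP2 against VN, 4 members passed, with CSPG5 and PTPRZ1 higher and VCAN and TNC lower, where 5.18% of all genes passed, 3.07% higher and 2.1% lower. For this pair 7 members did not overlap, against 23.5% of all genes. The 7 included NCAN, where the nearest VNP2 and VN libraries had 785.7 and 785.6 normalized counts and the TPM ranges overlapped. They also included ACAN, with 49.8 and 49.5 in the nearest libraries and overlapping counts before length correction. Neither of these genes was called between VNP2 and VN. Over the 3 substrates together, 6 members passed, where 19.3% of all genes did. The median log2 fold change of the 10 members was 0.057, 0.47 and 0.19 in the 3 comparisons, beside 0.0083, 0.0030 and -0.0026 over all tested genes. On VNP2 against Matrigel the middle values were those of CSPG5 (0.46) and TNR (0.48, SE 1.03). TNR is near the floor, and without the length offsets TNR and ACAN were just below 0, as given below. The medians therefore rest in part on genes with few counts. The comparisons share libraries, so their counts are not independent of each other. The members were chosen with earlier results of these data known, so their shares beside those of all genes are descriptive.

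**Figure D2:**
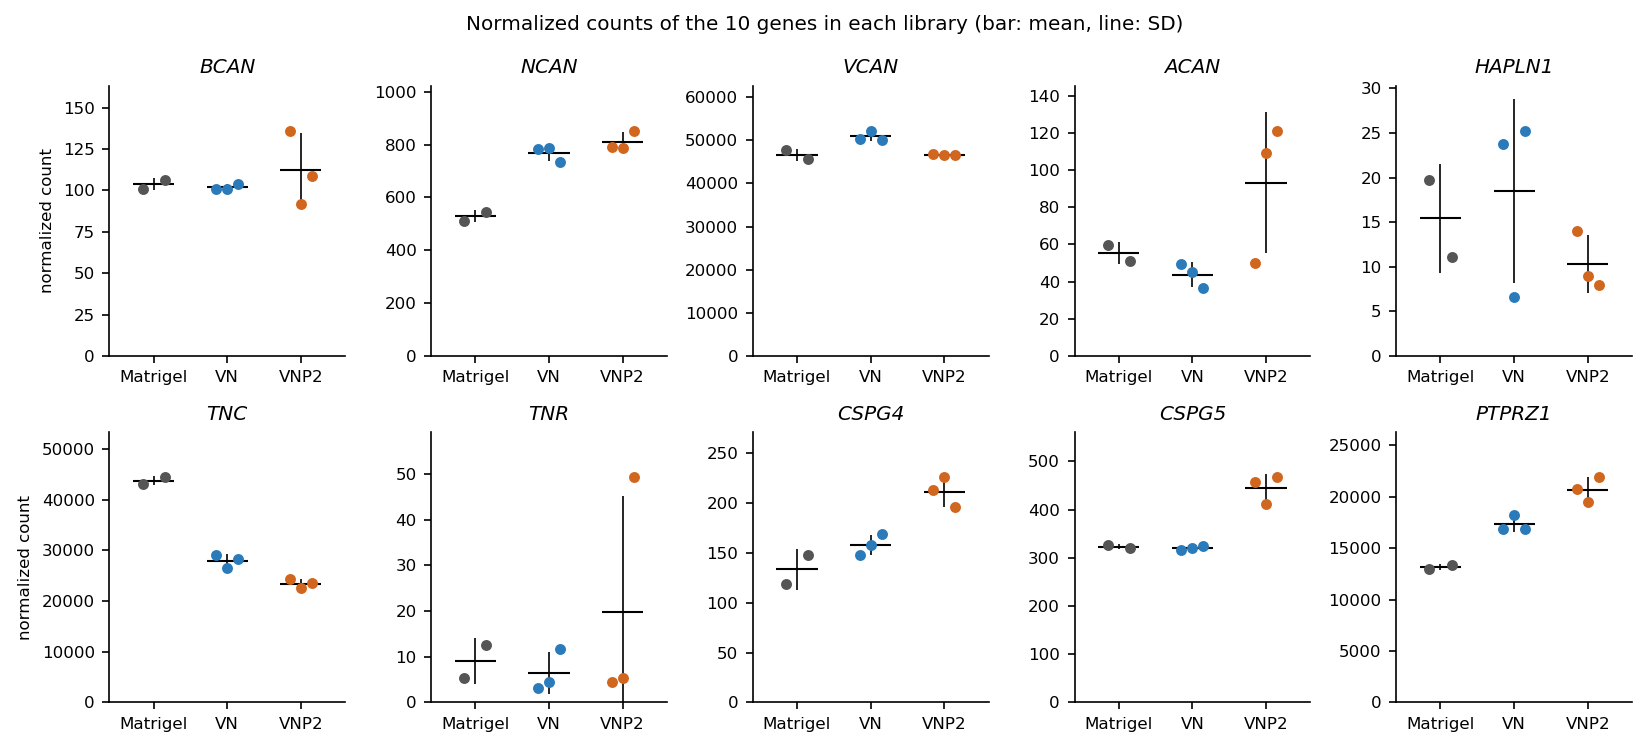
Normalized counts of each gene on each substrate, with 1 point per library, a bar for the mean and a line for the SD (n = 2 Matrigel, 3 VN and 3 VNP2), on axes that start at 0. TNC is highest on Matrigel and lowest on VNP2 without overlap, PTPRZ1 has the opposite order, NCAN is lower on Matrigel than on the other 2 substrates, and CSPG5 is raised in the VNP2 libraries.

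TNC (chromosome 9, 115019578 to 115118257, minus strand, GRCh38), the tenascin of developing and reactive tissue, had 43081 and 44343 normalized counts on Matrigel, 28971, 26535 and 28273 on VN, with 24314, 22468 and 23548 on VNP2. Every VN library was below every Matrigel library, and every VNP2 library was below every VN library. TNC fell by 36.1% on VN, a log2 fold change of -0.65 (SE 0.044, edgeR, Benjamini-Hochberg adjusted p = 6.91e-06). It fell by 46.4% on VNP2, a log2 fold change of -0.90 (SE 0.044, edgeR, Benjamini-Hochberg adjusted p = 4.48e-07). Between VNP2 and VN the log2 fold change was -0.25 (SE 0.040, edgeR, Benjamini-Hochberg adjusted p = 0.00491). Without VN replicate 1 the values on VN were -0.67 against Matrigel and -0.23 for VNP2 against VN, both still past the threshold. TNC and PTPRZ1 were the members called in all 3 comparisons.

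PTPRZ1 (chromosome 7, 121873089 to 122062036, plus strand), the phosphatase whose extracellular part carries chondroitin sulfate, moved in the other direction. It had 12941 and 13349 normalized counts on Matrigel, 16880, 18242 and 16859 on VN, with 20729, 19456 and 21862 on VNP2, and no substrate overlapped with another. It rose 1.32-fold on VN (log2 fold change 0.40, SE 0.053, edgeR, adjusted p by Benjamini-Hochberg = 6.66e-04) and 1.57-fold on VNP2 (0.65, SE 0.053, edgeR, Benjamini-Hochberg adjusted p = 1.52e-05). VNP2 exceeded VN by 0.26 on the log2 scale (SE 0.046, edgeR, Benjamini-Hochberg adjusted p = 0.0104). Without VN replicate 1, VN against Matrigel was 0.42 and VNP2 against VN was 0.24, both past the threshold. In the table of the authors, which holds all of its transcripts, PTPRZ1 had 17481 and 17280 normalized counts on Matrigel, 21168, 22683 and 21658 on VN, with 26165, 25220 and 26570 on VNP2. The same order held there without overlap, and limma on the log2 of that table gave 0.33, 0.58 and 0.25 for the 3 comparisons, all past the threshold.

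NCAN (chromosome 19, 19211973 to 19252233, plus strand), the secreted lectican of developing neural tissue, had 513 and 545 normalized counts on Matrigel, 783, 786 and 732 on VN, with 792, 786 and 852 on VNP2. It rose 1.45-fold on VN (log2 fold change 0.54, SE 0.070, edgeR, adjusted p by Benjamini-Hochberg = 6.13e-04) and 1.53-fold on VNP2 (0.61, SE 0.070, edgeR, Benjamini-Hochberg adjusted p = 1.69e-04). Between VNP2 and VN the difference was 0.08, with a 95% interval of -0.06 to 0.21, and did not pass the test (edgeR, Benjamini-Hochberg adjusted p = 0.520), although the lowest VNP2 library was just above the highest VN library. Without VN replicate 1, NCAN on VN against Matrigel was 0.52 and passed.

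VCAN (chromosome 5, 83471465 to 83582303, plus strand), the most abundant lectican, changed by a much smaller amount. It had 47632 and 45626 normalized counts on Matrigel, 50336, 52147 and 50146 on VN, with 46792, 46487 and 46615 on VNP2. The VN libraries were the highest and the VNP2 libraries fell within the range of Matrigel. VCAN rose by 9.11% on VN (log2 fold change 0.13, SE 0.031, edgeR, adjusted p by Benjamini-Hochberg = 0.0217) and was 0.13 lower on VNP2 than on VN (SE 0.028, edgeR, Benjamini-Hochberg adjusted p = 0.0271). Without VN replicate 1 these were 0.13 and -0.13 and passed. Without the length offsets the rise on VN was 0.22 and passed. The call on VN was lost without Matrigel replicate 3 (0.092, edgeR, Benjamini-Hochberg adjusted p = 0.210) or without VN replicate 2 (0.11, edgeR, Benjamini-Hochberg adjusted p = 0.0670). The call between VNP2 and VN was lost in 5 of the fits that left out 1 library, those without VN replicate 2, VN replicate 3 or any of the VNP2 replicates. VNP2 against Matrigel had a 95% interval of -0.069 to 0.069.

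The 2 remaining lecticans were scarce. BCAN (chromosome 1, 156641390 to 156659532, plus strand), the lectican of mature glia, had 101 and 106 normalized counts on Matrigel, 101, 101 and 104 on VN, with 136, 91.9 and 109 on VNP2. The substrates overlapped, and the log2 fold changes were -0.026, 0.11 and 0.13 for VN against Matrigel, VNP2 against Matrigel and VNP2 against VN, with 95% intervals of -0.41 to 0.36, -0.28 to 0.49 and -0.21 to 0.47. ACAN (chromosome 15, 88803442 to 88875354, plus strand), the proteoglycan of cartilage and perineuronal nets, had 59.7 and 51.2 normalized counts on Matrigel, 49.5, 45.4 and 36.3 on VN, with 49.8, 109 and 121 on VNP2. VNP2 replicates 2 and 3 were above all other libraries and VNP2 replicate 1 lay just below those of Matrigel. The log2 fold change was 1.04 for VNP2 against VN (SE 0.308, edgeR, adjusted p by Benjamini-Hochberg = 0.0895) and 0.70 against Matrigel (SE 0.340, edgeR, adjusted p by Benjamini-Hochberg = 0.204), and neither passed. Before length correction the ACAN counts were 66.0 and 63.0, then 55.0, 61.0 and 41.0, then 66.0, 58.0 and 75.0, with overlap between substrates. Without the length offsets the 2 differences were 0.32 and -0.0044, so the high normalized values of VNP2 replicates 2 and 3 went with a shorter estimated transcript length. Over protein-coding transcripts alone ACAN averaged 0.36054 TPM on Matrigel, 0.30037 on VN and 0.34297 on VNP2. Over all its transcripts the means were 0.36054, 0.30037 and 0.63646, so the total exceeded the protein-coding part on VNP2 alone. Without VNP2 replicate 1 both differences passed, at 1.39 for VNP2 against VN and 1.06 against Matrigel (edgeR, adjusted p by Benjamini-Hochberg = 0.00678 and 0.0128). These fits hold all ACAN transcripts, and a rise of the protein-coding ones was not tested.

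HAPLN1 (chromosome 5, 83637805 to 83721613, minus strand) had 19.7 and 11.1 normalized counts on Matrigel, 23.7, 6.65 and 25.2 on VN, with 13.97, 8.94 and 7.92 on VNP2. TNR (chromosome 1, 175315194 to 175743770, minus strand), the tenascin of oligodendrocytes and nodes, had 5.43 and 12.6 on Matrigel, 3.08, 4.56 and 11.7 on VN, with 4.57, 5.45 and 49.2 on VNP2. The value of 49.2 in VNP2 replicate 3 stood on 13 estimated counts. Both genes overlapped between substrates, and between VNP2 and VN their 95% intervals were -1.93 to 0.40 for HAPLN1 and -1.16 to 2.92 for TNR. The intervals against Matrigel were a little wider, and no difference was detectable in these libraries.

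CSPG4 (chromosome 15, 75674322 to 75712848, minus strand), the NG2 antigen, had 119 and 148 normalized counts on Matrigel, 148, 158 and 169 on VN, with 213, 226 and 196 on VNP2. The 3 substrates did not overlap, although the highest Matrigel and the lowest VN library were at the same level. In the table of the authors those libraries had 147.96 and 147.94 normalized counts, so that Matrigel and VN overlapped there. It rose 1.58-fold on VNP2 against Matrigel (log2 fold change 0.66, SE 0.136, edgeR, Benjamini-Hochberg adjusted p = 0.00739), a call that was lost without Matrigel replicate 2 (0.52, edgeR, Benjamini-Hochberg adjusted p = 0.0791). The difference on VN against Matrigel was 0.24 (SE 0.137, edgeR, Benjamini-Hochberg adjusted p = 0.267), and it ranged from 0.097 to 0.41 when each library was left out in turn. VNP2 against VN was 0.42 (SE 0.118, edgeR, adjusted p by Benjamini-Hochberg = 0.0764), and this passed without the length offsets (0.43, edgeR, Benjamini-Hochberg adjusted p = 0.0344). The genome carries near-identical copies of parts of this gene, so how reads were divided among them is uncertain.

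CSPG5 (chromosome 3, 47562239 to 47580792, minus strand), the membrane proteoglycan of the neuregulin family, was called in the 2 comparisons that hold VNP2. It had 327 and 320 normalized counts on Matrigel, 316, 321 and 324 on VN, with 458, 411 and 467 on VNP2. Every VNP2 library was above all others, and the Matrigel and VN libraries overlapped. CSPG5 rose 1.38-fold on VNP2 against Matrigel (log2 fold change 0.46, SE 0.085, edgeR, adjusted p by Benjamini-Hochberg = 0.00389) and 1.39-fold against VN (0.47, SE 0.075, edgeR, Benjamini-Hochberg adjusted p = 0.00485). On VN against Matrigel the log2 fold change was -0.012 with a 95% interval of -0.20 to 0.18. Without VN replicate 1 the difference between VNP2 and VN was 0.46 and passed.

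**Figure D3:**
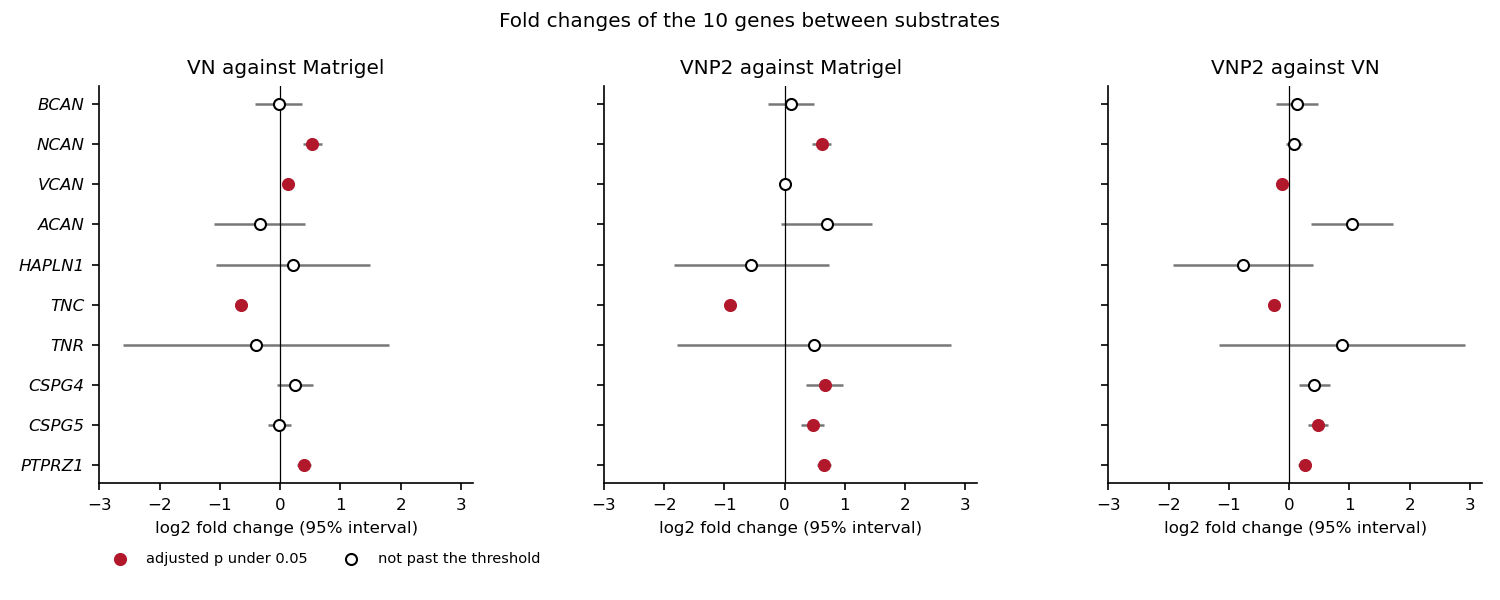
Log2 fold changes of the 10 genes (points) with 95% intervals (lines) in the 3 comparisons, filled where the Benjamini-Hochberg adjusted p of edgeR was under 0.05. TNC lies left of 0 and PTPRZ1 right of 0 in all 3 panels, CSPG5 differs from 0 where VNP2 is compared, and HAPLN1, TNR and ACAN have the widest intervals.

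Alternative transcripts separate proteins of different function in several of these genes, and their shares of the TPM of a gene were compared for the 4 members that had at least 2 transcripts with 10% or more. Among the VCAN transcripts, the one of 3396 codons that holds both chondroitin sulfate domains (VCAN-201, V0) took 19.5% ± 0.77 on Matrigel (SD, n = 2), 22.3% ± 1.57 on VN and 21.1% ± 0.82 on VNP2 (SD, n = 3). The one of 2409 codons with a single such domain (VCAN-203, V1) took 40.3% ± 0.39, 40.3% ± 0.71 and 39.7% ± 0.89. The longest TNC transcript, with 2201 codons (TNC-202), took 39.3% ± 0.40, 41.5% ± 1.82 and 39.7% ± 2.10, with VNP2 libraries on both sides of those from Matrigel. The shorter TNC transcript of 2019 codons (TNC-201) took 37.5% ± 0.91, 36.6% ± 1.74 and 36.9% ± 0.67.

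The full-length receptor transcript of PTPRZ1, with 2315 codons (PTPRZ1-201), took 49.8% and 50.3% on Matrigel, 51.1%, 48.9% and 53.9% on VN, with 57.5%, 61.3% and 56.9% on VNP2. The short receptor of 1448 codons, which lacks a large part of the chondroitin sulfate region (PTPRZ1-202), took 24.5% and 25.6% on Matrigel, 23.6%, 23.7% and 23.8% on VN, with 20.5%, 17.8% and 19.9% on VNP2. Thus on VNP2 the long form was higher and the short form lower than in every other library, as shares of the matched transcripts. In an exact permutation test over the 560 assignments of libraries to substrates, one-sided, p was 0.025 for the long form and 0.00357 for the short form, the latter being the smallest this design allows. After Benjamini-Hochberg adjustment over 23738 transcripts of all genes the values of this exact permutation test were 0.707 and 0.705, and neither passed. BCAN-201, which encodes the secreted protein of 911 codons, took 40.1% ± 5.04, 32.5% ± 4.82 and 34.2% ± 11.5, and BCAN-202, the form of 671 codons with a membrane anchor, 31.2% ± 1.05, 53.5% ± 11.3 and 49.9% ± 19.4, from a mean of 51.2 and 49.1 counts. The permutation test called 0 of the 10 member transcripts and 0.0% of all transcripts. A call would have needed 1696 transcripts at the smallest p and 117 had it, so the 0 says nothing about whether shares differed. An unadjusted p under 0.05 was found for 2 member transcripts, both of PTPRZ1, and for 1542 of all transcripts.

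**Figure D4:**
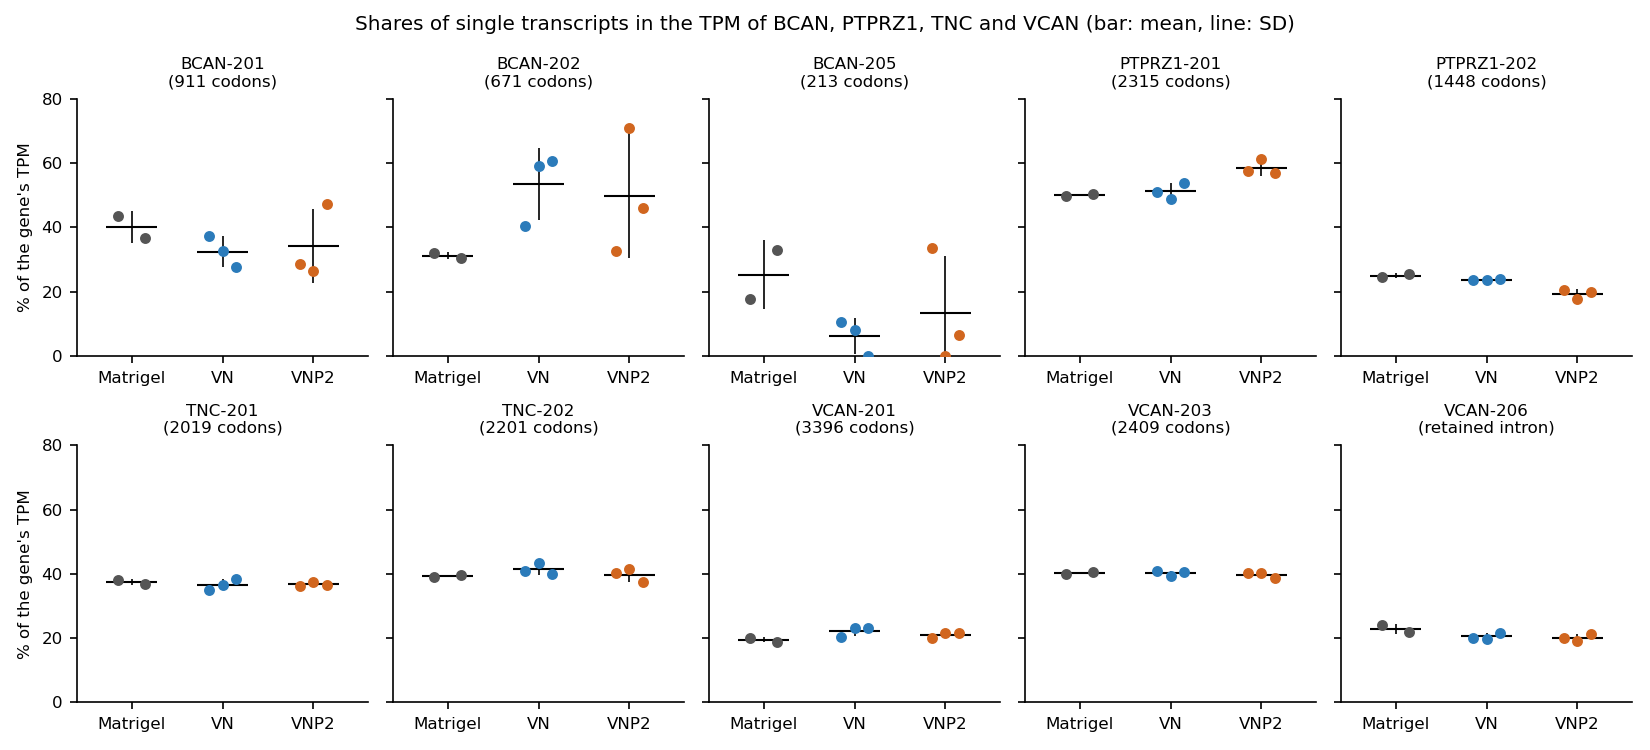
Share of single transcripts in the TPM of their gene, in percent, with 1 point per library, a bar for the mean and a line for the SD. The VCAN and TNC shares stay within a few percent across substrates, the 2315-codon form of PTPRZ1 is highest and its 1448-codon form lowest on VNP2, and the BCAN shares scatter widely within a substrate.

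Each lectican gene lies beside a link protein gene in the genome. VCAN and HAPLN1 are 55.5 kb apart on chromosome 5, BCAN and HAPLN2 15.7 kb on chromosome 1, ACAN and HAPLN3 1.9 kb on chromosome 15, and NCAN and HAPLN4 3.4 kb on chromosome 19. Within the first pair the levels were unequal: VCAN averaged 46629 normalized counts on Matrigel and HAPLN1 15.4. HAPLN3, next to ACAN, had 220 ± 8.63 normalized counts on Matrigel (SD, n = 2), 166 ± 19.3 on VN and 193 ± 12.1 on VNP2 (SD, n = 3), with a difference of -0.41 on the log2 scale for VN against Matrigel (SE 0.124, edgeR, Benjamini-Hochberg adjusted p = 0.0498). That value passed in 1 of the 8 fits that left out a library, the one without VN replicate 1, where it was -0.51.

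The rest of the matrix was read from lists of genes that make, bind or cut it. These lists too were chosen with earlier results of these data known, so their shares called are descriptive. In the hyaluronan network, 15 of 17 genes were tested. Against Matrigel, 1 was higher and 3 were lower on VN, 2 and 3 on VNP2, and 1 and 1 between VNP2 and VN. These are 26.7%, 33.3% and 13.3% of the tested genes of the list, where 15.2%, 16.6% and 5.18% of all genes passed. HAS3, a hyaluronan synthase, rose by 0.56 on VN and 0.87 on VNP2 on the log2 scale (SE 0.149 and 0.148, edgeR, adjusted p by Benjamini-Hochberg = 0.0305 and 0.00255). The call on VN was lost without VN replicate 1 (0.49), without VN replicate 2 (0.50), without either Matrigel library (0.60 and 0.51) and without the length offsets (0.36). HAS2, the other synthase measured at this level, had 0.25 and 0.10 and did not pass (edgeR, adjusted p by Benjamini-Hochberg = 0.0766 and 0.480). TNN, a further tenascin, fell with TNC, by 0.64 on VN and 0.997 on VNP2 (edgeR, adjusted p by Benjamini-Hochberg = 0.0284 and 0.00253), and lost the call on VN without VN replicate 2 (-0.52) or either Matrigel library (-0.62 and -0.66). CEMIP2, a cell-surface hyaluronidase, fell by 0.28 and 0.34 (edgeR, adjusted p by Benjamini-Hochberg = 0.00115 and 2.39e-04). HMMR, a hyaluronan receptor that also marks dividing cells, fell by 0.29 on VNP2 against Matrigel and by 0.24 against VN. The hyaluronan receptor CD44 had -0.20 and -0.51 against Matrigel and did not pass.

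Of 25 genes that build and sulfate chondroitin chains, 24 were tested. Compared with Matrigel, 0 were higher and 3 lower on VN and 1 and 5 on VNP2, and between VNP2 and VN 1 and 1, with a median log2 fold change of -0.12, -0.10 and 0.064. The shares called were 12.5%, 25.0% and 8.33%, beside 15.2%, 16.6% and 5.18% of all genes, so that on VN the share lay below that of all genes. CHST3, a chondroitin 6-O-sulfotransferase, fell by 0.34 on VN and 0.22 on VNP2 against Matrigel (edgeR, adjusted p by Benjamini-Hochberg = 0.00382 and 0.0281). The chain polymerizing factors CHPF and CHPF2 fell by 0.29 and 0.23 on VN. CHST7, another 6-O-sulfotransferase, and PAPSS2, which makes the sulfate donor, fell by 0.46 and 0.28 on VNP2. UST, which adds sulfate to uronic acid, rose by 0.23 on VNP2 against Matrigel, and CHST11, a 4-O-sulfotransferase, rose by 0.32 on VNP2 against VN (edgeR, adjusted p by Benjamini-Hochberg = 0.0454 and 0.00647). In this list CHST11 kept its call whichever library was left out. CHST3, CHPF and CHPF2 on VN each lost it without 1 of the Matrigel libraries (-0.30 and -0.21 for CHST3 and CHPF2 without replicate 2, and -0.24 for CHPF without replicate 3). CHST3, CHST7, PAPSS2 and UST on VNP2 against Matrigel lost theirs without either Matrigel library and without 2 or more of the others.

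All 8 genes of lectican cleavage, 7 ADAMTS proteases and the inhibitor TIMP3, were tested. Against Matrigel, 0 were higher and 2 lower on VN and 1 and 2 on VNP2, and between VNP2 and VN 1 and 1. These are 25.0%, 37.5% and 25.0% of 8 genes, beside 15.2%, 16.6% and 5.18% of all genes. ADAMTS15 had 3005 and 3259 normalized counts on Matrigel, 2002, 1696 and 1727 on VN, with 1124, 1118 and 1006 on VNP2, in the same order as TNC and without overlap. It fell by 0.79 on VN and by 1.53 on VNP2 on the log2 scale (SE 0.077 and 0.079, edgeR, adjusted p by Benjamini-Hochberg = 8.59e-05 and 6.16e-07). TIMP3 fell by 0.64 on VN and by 0.64 on VNP2 (edgeR, adjusted p by Benjamini-Hochberg = 4.24e-05 and 2.72e-05). ADAMTS9 rose by 0.55 on VNP2 against Matrigel and by 0.41 against VN (edgeR, adjusted p by Benjamini-Hochberg = 0.00393 and 0.0263), and the latter call was lost without VN replicate 3 (0.33) or any of VNP2 replicates 1, 2 and 3 (0.37, 0.44 and 0.42).

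All 16 ligands and receptors of these molecules were tested. Relative to Matrigel, 4 were higher and 4 lower on VN and 7 and 3 on VNP2, and between VNP2 and VN 3 and 0. Thus 8 of the 16 passed on VN, and 62.5% and 18.8% of them in the other 2 comparisons, beside 15.2%, 16.6% and 5.18% of all genes. PTN (pleiotrophin), the growth factor that binds the chondroitin chains of PTPRZ1, had 688 and 668 normalized counts on Matrigel, 416, 403 and 454 on VN, with 427, 428 and 432 on VNP2. It fell by 0.68 on VN and by 0.66 on VNP2 (SE 0.073 for both, edgeR, adjusted p by Benjamini-Hochberg = 1.75e-04 and 1.44e-04), while its receptor PTPRZ1 rose. The related factor MDK (midkine), at 19766 ± 357 normalized counts on Matrigel (SD, n = 2), 18749 ± 723 on VN and 18987 ± 469 on VNP2 (SD, n = 3), did not pass, with -0.076 and -0.058. ALK, a receptor tyrosine kinase to which PTN and MDK have been linked, rose by 0.62 and 0.96 (edgeR, adjusted p by Benjamini-Hochberg = 0.0101 and 5.29e-04), and the call on VN was lost without Matrigel replicate 2 (0.50) or the length offsets (0.33). NFASC (neurofascin), an adhesion molecule, rose by 0.38 and 0.32, and both calls were lost without Matrigel replicate 2 (0.22 and 0.16) and the latter without VNP2 replicate 2 (0.31). PTPRF, a phosphatase receptor of the LAR family, fell by 0.32 and 0.31. CNTN1 (contactin), a partner of PTPRZ1 and TNR, had 0.30 and 0.043 and did not pass. Among the receptors that TNC binds, those of the list did not move alike. EGFR rose by 0.50 and the integrin subunit ITGA9 by 0.41 on VNP2 against VN (edgeR, adjusted p by Benjamini-Hochberg = 0.00150 and 0.00191). On VN against Matrigel ITGA9 fell by 0.24 (edgeR, Benjamini-Hochberg adjusted p = 0.0239), a call lost without either Matrigel library or VN replicate 3. EGFR had -0.24 there and did not pass (edgeR, Benjamini-Hochberg adjusted p = 0.0501). On VNP2 against Matrigel EGFR rose by 0.26 (edgeR, Benjamini-Hochberg adjusted p = 0.0352). That call was lost without either Matrigel library or without VNP2 replicate 1 or 2. ITGA9 had 0.16 on VNP2 against Matrigel and did not pass (edgeR, Benjamini-Hochberg adjusted p = 0.107). The subunits ITGAV and ITGA8, which the rule for naming genes leaves out, were added after their values were seen. ITGAV, also a subunit of the vitronectin receptor, fell by 0.31 on VN and by 0.28 on VNP2 against Matrigel (edgeR, adjusted p by Benjamini-Hochberg = 0.00260 and 0.00405), the latter lost without Matrigel replicate 2. ITGA8 rose by 1.41 on VNP2 against Matrigel and by 1.10 against VN (edgeR, adjusted p by Benjamini-Hochberg = 0.00224 and 0.0112). On VN against Matrigel ITGA8 had 0.31 and did not pass (edgeR, Benjamini-Hochberg adjusted p = 0.431).

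Of 10 other chondroitin sulfate proteoglycans, 9 were tested. Against Matrigel, 1 was higher and 2 were lower on VN and 4 and 2 on VNP2, and between VNP2 and VN 4 and 1. These are 33.3%, 66.7% and 55.6% of 9 genes, beside 15.2%, 16.6% and 5.18% of all genes. SPOCK1 (testican) fell by 0.55 on VN and 0.88 on VNP2 against Matrigel (edgeR, adjusted p by Benjamini-Hochberg = 1.60e-04 and 3.77e-06). APLP2, an amyloid precursor-like protein, fell by 0.20 on VN. DCN (decorin), a collagen-binding proteoglycan, rose by 0.53 on VN and 0.34 on VNP2. TGFBR3 (betaglycan) and NRP1 (neuropilin), both co-receptors at the cell surface, rose by 0.46 and 0.39 on VNP2 against Matrigel. The call of TGFBR3 was lost without either Matrigel library (0.47 and 0.45), and that of DCN on VNP2 without Matrigel replicate 3 (0.31). BGN (biglycan) rose by 0.35 on VNP2 against VN (edgeR, Benjamini-Hochberg adjusted p = 0.00133).

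**Figure D5:**
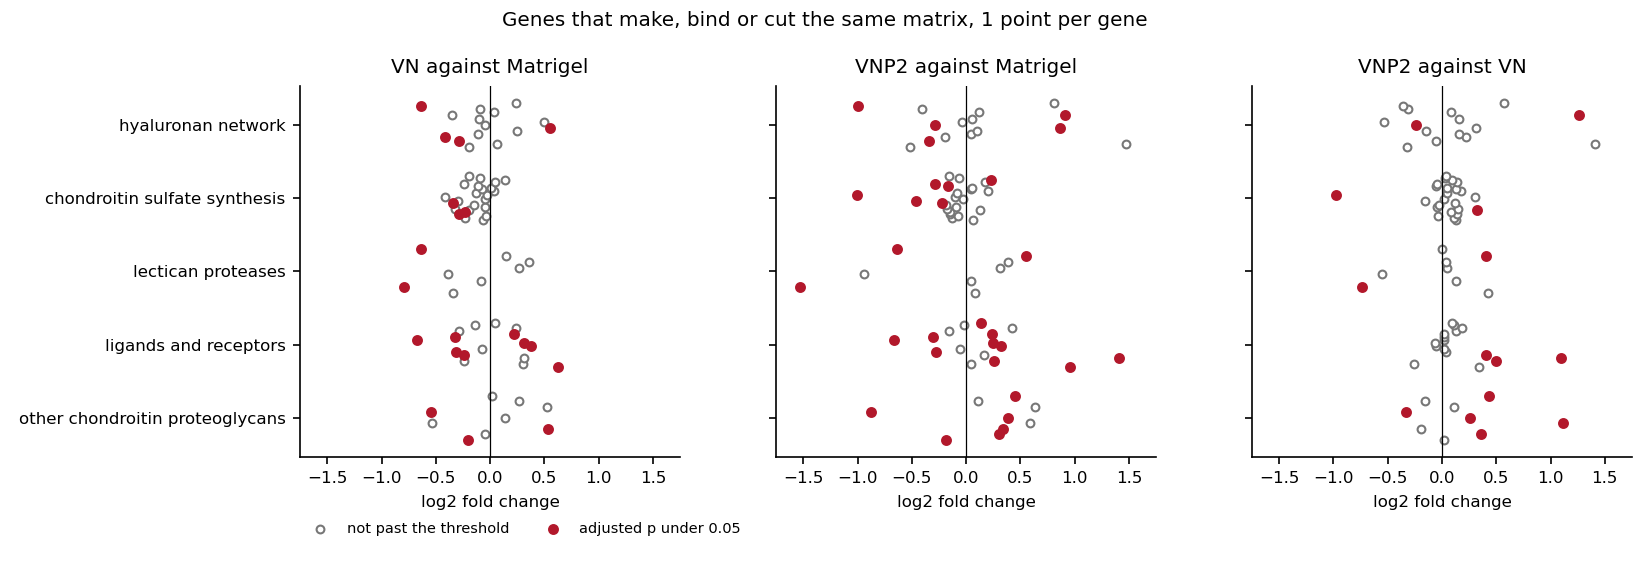
Log2 fold changes of the tested genes of 5 related lists, 1 point per gene, in the 3 comparisons, filled where the Benjamini-Hochberg adjusted p of edgeR was under 0.05. Filled points lie on both sides of 0 in most lists, and the protease list holds the point farthest to the left, ADAMTS15 at -1.53 on VNP2 against Matrigel.

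In bulk RNA, fewer cells of a type and less RNA per cell cannot be told apart, and several of the members are also made by radial glia, neurons and mesenchymal cells. The summed TPM of the 5 OPC markers was 106 to 108 on Matrigel, 135 to 138 on VN and 137 to 144 on VNP2, and 2 of the 4 tested ones rose on VN and all 4 on VNP2. The 7 radial glia and astrocyte markers summed to 148 to 155, 153 to 169 and 197 to 214 TPM, with 0 of 4 tested called on VN against Matrigel and 2 higher on VNP2, and GFAP, HOPX and AQP4 were too low to test. The 6 neuron markers summed to 862 to 903, 980 to 1023 and 1021 to 1033 TPM, with 4 of 6 higher on VN and 3 on VNP2. The 10 mesenchymal and perivascular markers summed to 613 to 625, 624 to 658 and 532 to 568 TPM, with 3 higher and 4 lower than on Matrigel for VN, and 5 and 4 for VNP2. The 7 cartilage markers, to be read beside ACAN, summed to 279 in both Matrigel libraries, 277 to 283 on VN and 281 to 290 on VNP2, with 1 of the 6 tested higher and 2 lower than on Matrigel for VN, and 2 and 2 for VNP2. The 4 pluripotency markers summed to 61.2 to 64.0, 47.3 to 48.6 and 38.97 to 42.2 TPM, with 1 lower on VN and 2 on VNP2. No marker of these lists was at 0 in every library. The OPC and neuron sums were lowest on Matrigel, where PTPRZ1 and NCAN were lowest and TNC highest. The pluripotency sum was highest on Matrigel and lowest on VNP2, the order of TNC. The radial glia and astrocyte sum was highest on VNP2, where TNC was lowest and PTPRZ1 highest. The mesenchymal sum was lowest on VNP2, and the cartilage sums overlapped between substrates. The part of any cell type in these differences was not tested.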

How the data were processed

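RNA-seq of OPCs on 3 substrates was analysed in 8 libraries (Matrigel replicates 2 and 3, VN and VNP2 replicates 1 to 3, numbered as in the labels). The authors trimmed reads with Trim Galore and ran Salmon on the GENCODE v32 transcripts (GRCh38), and deposited for each library the estimated counts and TPM per transcript, with no pooling. The authors also deposited normalized counts per gene, a signal that DESeq2 1.27.12 made from the Salmon estimates with size factors and transcript lengths, and this table was used for 2 alternatives.

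Here 205225 of 226608 transcripts, with 98.8 to 98.9% of the estimated counts, were matched to GENCODE v29 and summed to 58217 genes. Transcripts of the newer release are left out, which lowers PTPRZ1. The estimated counts were rounded and fitted with edgeR 4.0.16 (R 4.3.3): filterByExpr (minimum count 10, total 15), TMM, offsets for average transcript length, quasi-likelihood F-tests, two-sided, with Benjamini-Hochberg adjustment over 18201 genes within each comparison and calls at an adjusted p under 0.05. No replicate block was used: same-numbered libraries had correlations of their deviations from the group means of only -0.049 to 0.017. The SE of a log2 fold change was derived from its F statistic. Shares of TPM were tested by exact permutation (transcripts with a mean share of at least 10% in genes with a mean TPM of at least 1), adjusted over 23738 transcripts. That covers all genes and not the members alone, which departs from the design first written. The number of counts and the length offsets both bear on the intervals of ACAN, HAPLN1 and TNR.

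All 10 members are named whatever they show. From each related list, at most the 4 called genes with the largest change in a comparison and a mean normalized count of at least 100 are named, plus PTN, MDK, CNTN1, HAS2 and CD44. ITGAV and ITGA8 were added after their values were seen. The members and lists were chosen with earlier results of these data known. The alternatives were DESeq2 1.42.0, the replicate number as a block, RLE size factors, leaving out the length offsets, leaving out the filter or requiring 50 counts in each library, fitting the compared libraries alone, limma 3.58.1 on the log2 of the authors' table with a pseudocount of 1 or 10, and each library left out in turn. For shares they were the share of estimated counts, a minimum of 5%, the logit scale and each library left out. Scripts were tested on simulated data. The other experiments of the article were not analysed here.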

Additional observations from a re-analysis of the deposited data

How the results depend on the processing

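The number of members called stayed within 1.5 times under every alternative run: 3 to 4 on VN against Matrigel, 4 to 6 on VNP2 against Matrigel, 3 to 5 between VNP2 and VN, and 5 to 7 over the substrates together. The called values of TNC, PTPRZ1, NCAN and CSPG5 kept their direction and their calls. Over the substrates together, VCAN lost its call without VN replicate 2 and CSPG4 without VNP2 replicate 2. With replicate number as a block, the same members were called (4, 5, 4 and 6), and the one reversed sign was that of HAPLN1 on VN (-0.084). Without length offsets, 4 uncalled signs reversed: BCAN 0.085 and HAPLN1 -0.077 on VN against Matrigel, ACAN -0.0044 and TNR -0.016 on VNP2 against Matrigel. VCAN on VNP2 against Matrigel, near 0 throughout, was -0.00051 without the filter and -0.00049 in limma with a pseudocount of 1 or 10. Leaving out each library in turn reversed further uncalled values, with ranges on VN against Matrigel of -0.063 to 0.0081 for BCAN, -0.19 to 0.71 for HAPLN1, -0.96 to 0.24 for TNR and -0.032 to 0.0039 for CSPG5, on VNP2 against Matrigel of -0.048 to 0.23 for BCAN, -0.031 to 0.034 for VCAN and -0.024 to 1.18 for TNR, and between VNP2 and VN of -0.022 to 0.26 for BCAN. VCAN on VN also lost its call when the compared libraries were fitted alone (edgeR, Benjamini-Hochberg adjusted p = 0.0702), and between VNP2 and VN with a pseudocount of 10 (limma, Benjamini-Hochberg adjusted p = 0.0600). ACAN, summed over all its transcripts, passed between VNP2 and VN with DESeq2 (1.07, Benjamini-Hochberg adjusted p = 0.0401) and without the filter (1.04, edgeR, Benjamini-Hochberg adjusted p = 0.0131). The exact permutation test of isoform shares called 0 members in 12 settings, which says nothing about stability, since a call needed at least 1320 transcripts at the smallest possible p and at most 406 had it. The scaling of PTPRZ1 and the fits for the genes of the related lists were chosen after seeing the data. Of the named genes, 15 of 16 called on VN, 19 of 19 on VNP2 against Matrigel and 10 of 10 between VNP2 and VN were still called without VN replicate 1. Leaving out that library raised the calls over all genes, from 2770 to 3911, from 3017 to 3653 and from 942 to 1979. VNP2 against Matrigel does not compare it at all, so these kept calls say little about stability. Several named genes lost calls without another library, as given with them above. ACAN, HAPLN1 and TNR had at most 75, 17 and 15 counts in a library, and the SE of ACAN on VN was 0.339 with and 0.194 without length offsets. The causes of these shifts were not tested.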
